A study of Mus musculus with 42 samples.

Results

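The 32 genes described here encode mouse histone acetyltransferases, histone deacetylases and readers of acetylated histones, and were followed through bulk RNA sequencing of microglia, the resident macrophages of the brain. They were taken as a fixed list of gene symbols, chosen with earlier results of these data known. Shares of members called are therefore only descriptive when set beside shares of all genes. All 32 were found both among the 24421 rows of the whole-brain count table and among the 53546 rows of the cortex and hippocampus count table. The list holds 11 zinc-dependent deacetylases (Hdac1 to Hdac11), 6 sirtuins (Sirt1, Sirt2, Sirt3, Sirt5, Sirt6 and Sirt7), 8 acetyltransferases of the GCN5, HAT1 and MYST families (Kat2a, Kat2b, Hat1, Kat5, Kat6a, Kat6b, Kat7 and Kat8), the paired coactivators Ep300 and Crebbp, 3 steroid receptor coactivators (Ncoa1, Ncoa2 and Ncoa3) and the bromodomain readers Brd2 and Brd3.

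All 42 libraries came from C57BL/6 mice, from cells enriched on a density gradient and sorted as CD11b+ CD45lo. Whole-brain microglia were taken from wild-type mice, given an age of 6 to 12 weeks in one label and of 8 weeks in their titles, that were germ-free (GF, raised without microbes, n = 5) or specific-pathogen-free (SPF, with a normal but defined-pathogen-free flora, n = 3). Cortical microglia were taken at 16 weeks from wild-type GF mice that drank water with acetate (n = 4), untreated wild-type GF mice (n = 4) and wild-type SPF mice (n = 4). Hippocampal microglia were taken at 16 weeks from 5xFAD mice that were GF with acetate (n = 4), GF (n = 3) or SPF (n = 4), and from wild-type mice that were GF with acetate (n = 4), GF (n = 3) or SPF (n = 4). In 5xFAD mice, human amyloid precursor protein and presenilin transgenes with familial Alzheimer mutations are driven by the neuronal Thy1 promoter, so neurons and not the sorted cells are meant to express them. The labels give 8 weeks of acetate for a set of wild-type and 5xFAD GF mice and also mention an acetate group of 4 weeks that they do not tie to single libraries. Animals other than SPF 1 to 4 and the whole-brain mice carry letters here in the order of their animal numbers (GF-a to GF-d and acetate-a to acetate-d in wild type, and SPF-a to SPF-d and GF-a to GF-c in 5xFAD), with the same letter for both regions of a wild-type animal. The questions the design poses are how germ-free housing and acetate supplementation alter microglia.

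Acetyltransferases move the acetyl group of acetyl-CoA onto lysines of the histone tails, which loosens chromatin and creates docking sites for bromodomains, while deacetylases take the group off. Acetate can be turned into acetyl-CoA by acetyl-CoA synthetases, which is how a bacterial fermentation product can feed the acetyltransferases. Class I deacetylases sit in the nuclear corepressor complexes, class IIa deacetylases shuttle between cytoplasm and nucleus and bind MEF2 transcription factors, and sirtuins use NAD in place of zinc. In mouse, Hdac1 and Hdac2 together are needed for the normal development of microglia. Transcript counts report on the amount of these enzymes' mRNA and not on their activity or on histone acetylation itself.

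Total counts per library ran from 19329304 to 25366393 in whole brain, from 15790383 to 23860490 in cortex and from 5743891 to 22532410 in hippocampus, where only wild-type SPF 4 (5862938) and 5xFAD SPF-b (5743891) fell below 15060925. The summed level of 9 microglial markers ranged from 39820 to 80260 CPM across libraries, with none of the 9 at 0 throughout a group. The 6 neutrophil markers summed to 173 CPM in whole-brain GF 4, 259 CPM in 5xFAD SPF-d and 226.5 CPM in wild-type hippocampal GF-d, against group medians of 0 to 0.411 CPM. Of the hippocampal libraries with full depth, wild-type GF-c (17750) and acetate-a (16607) detected the fewest genes, against 18980 to 20031 in the others. T and NK cell markers summed to at most 0.264 CPM in any library. CPM, the counts of a gene relative to the library total after TMM scaling, were computed separately for the 2 tables, so levels in whole brain and in the regions were not tested against each other. In bulk libraries, fewer cells of a type and less RNA per cell cannot be told apart.

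Promoter windows are shown for members that passed the test in whole brain (Hdac9), in 5xFAD hippocampus (Ncoa1) and, with the smallest adjusted p, between regions (Kat2a, Kat7 and Crebbp). Each runs over the 250 bases upstream of an annotated start, 5′ to 3′ on the gene's strand, from the RefSeq promoter table on GRCm38.p6, in which 26 of the 32 symbols had 38 windows. Hdac9 has 2 starts, chr12:34917096-34917345 and chr12:34528890-34529139. Ncoa1 lies at chr12:4477183-4477432, Kat2a at chr11:100712468-100712717, Kat7 at chr11:95310247-95310496 and Crebbp at chr16:4213405-4213654, and all 6 windows are on the minus strand. Capitals mark matches on either strand to 6 short motifs, and matches of different motifs may overlap. The GC box, bound by factors of the Sp family, was searched as GGGCGG. The box bound by NF-Y was searched as CCAAT. The TATA box, bound by the basal transcription machinery, was searched as TATAAA. The core of sites for ETS factors was searched only as CGGAAG, so other forms of the ETS site are left unmarked. The E-box of basic helix-loop-helix factors was searched as CAGCTG. The CRE core, bound by factors of the CREB and ATF families, was searched as TGACG.
Hdac9, upstream start: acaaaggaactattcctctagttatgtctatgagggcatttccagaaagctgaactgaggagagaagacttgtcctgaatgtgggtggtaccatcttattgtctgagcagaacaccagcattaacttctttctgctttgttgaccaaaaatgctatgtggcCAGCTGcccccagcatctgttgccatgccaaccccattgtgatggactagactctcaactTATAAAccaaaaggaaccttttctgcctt
Hdac9, downstream start: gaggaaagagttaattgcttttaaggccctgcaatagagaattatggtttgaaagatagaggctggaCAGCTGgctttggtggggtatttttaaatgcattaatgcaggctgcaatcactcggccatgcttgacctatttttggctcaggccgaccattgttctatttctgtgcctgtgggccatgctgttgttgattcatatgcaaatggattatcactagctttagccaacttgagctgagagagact
Ncoa1: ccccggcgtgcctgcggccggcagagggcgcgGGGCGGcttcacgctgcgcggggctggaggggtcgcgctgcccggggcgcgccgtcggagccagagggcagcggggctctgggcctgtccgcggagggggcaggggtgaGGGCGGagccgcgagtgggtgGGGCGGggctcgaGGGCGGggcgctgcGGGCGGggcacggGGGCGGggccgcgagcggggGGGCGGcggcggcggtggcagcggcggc
Kat2a: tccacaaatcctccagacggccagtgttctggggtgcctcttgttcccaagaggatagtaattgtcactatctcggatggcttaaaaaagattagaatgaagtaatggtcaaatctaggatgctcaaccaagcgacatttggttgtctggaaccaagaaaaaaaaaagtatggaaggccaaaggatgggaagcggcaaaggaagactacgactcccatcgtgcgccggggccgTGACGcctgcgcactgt
Kat7: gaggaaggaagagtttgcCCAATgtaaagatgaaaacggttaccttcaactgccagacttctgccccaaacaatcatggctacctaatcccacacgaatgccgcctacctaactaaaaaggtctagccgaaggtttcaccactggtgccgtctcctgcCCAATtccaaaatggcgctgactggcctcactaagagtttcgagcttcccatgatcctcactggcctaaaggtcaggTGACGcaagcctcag
Crebbp: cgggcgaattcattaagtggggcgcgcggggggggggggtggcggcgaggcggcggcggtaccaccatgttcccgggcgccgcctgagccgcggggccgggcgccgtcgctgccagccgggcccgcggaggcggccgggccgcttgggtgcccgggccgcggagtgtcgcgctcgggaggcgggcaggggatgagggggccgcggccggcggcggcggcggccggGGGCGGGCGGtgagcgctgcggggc

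The 6 windows differ in base composition. Both Hdac9 windows are poor in CpG, with 44.4% and 43.6% G+C and an observed over expected CpG ratio of 0 and 0.175, against medians of 52.4% and 0.374 over all 32851 windows of the table. Ncoa1 (85.6% G+C, ratio 0.985, 7 GC boxes) and Crebbp (84% G+C, ratio 1.08, 2 GC boxes) are CpG-rich. Kat2a (48.8%, ratio 0.746) and Kat7 (50.8%, ratio 0.51) lie near the median in G+C and above it in CpG. The upstream Hdac9 window carries a TATA box, which 12.4% of all windows hold, and both windows carry the E-box, held by 13% of all windows. Kat2a and Kat7 each hold a CRE core (17.8% of all windows) and Kat7 also holds 2 CCAAT boxes (33.8% of all windows). Over the whole list, 23 of the 38 windows, from 21 members, held a GC box, against 32.7% of all windows. No window of a member held the glucocorticoid response element, found in 0.00913% of all windows. These matches describe letters only and were not tied to any binding data.

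Levels per kilobase of exon spread widely among the members. In cortex SPF libraries the highest mean levels were 36.4 ± 3.98 CPM per kb of exon for Sirt7, a nuclear sirtuin, and 35.8 ± 3.72 CPM per kb for Ncoa3 (SD, n = 4 each), which did not differ beyond their spread. Brd2 (28 ± 2.69), Kat2a (27.5 ± 3.57), Sirt2 (26.6 ± 1.54) and Kat7 (22.2 ± 3.41 CPM per kb) followed. Of the class I deacetylases, Hdac1 at 14.1 ± 1.03, Hdac2 at 12.8 ± 1.74 and Hdac3 at 12.1 ± 0.454 CPM per kb lay next to Ep300 at 16.6 ± 2.60 and Crebbp at 12.9 ± 1.01 CPM per kb, and Hdac8 lay lower at 1.99 ± 0.796 CPM per kb. At the low end stood Hdac9 (1.70 ± 0.264), Kat6b (1.46 ± 0.307) and Hdac7 (0.116 ± 0.115 CPM per kb). Hdac7, a class IIa deacetylase, did not exceed 4.55 CPM in any of the 42 libraries, so its differences rest on few reads.

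**Figure D1:**
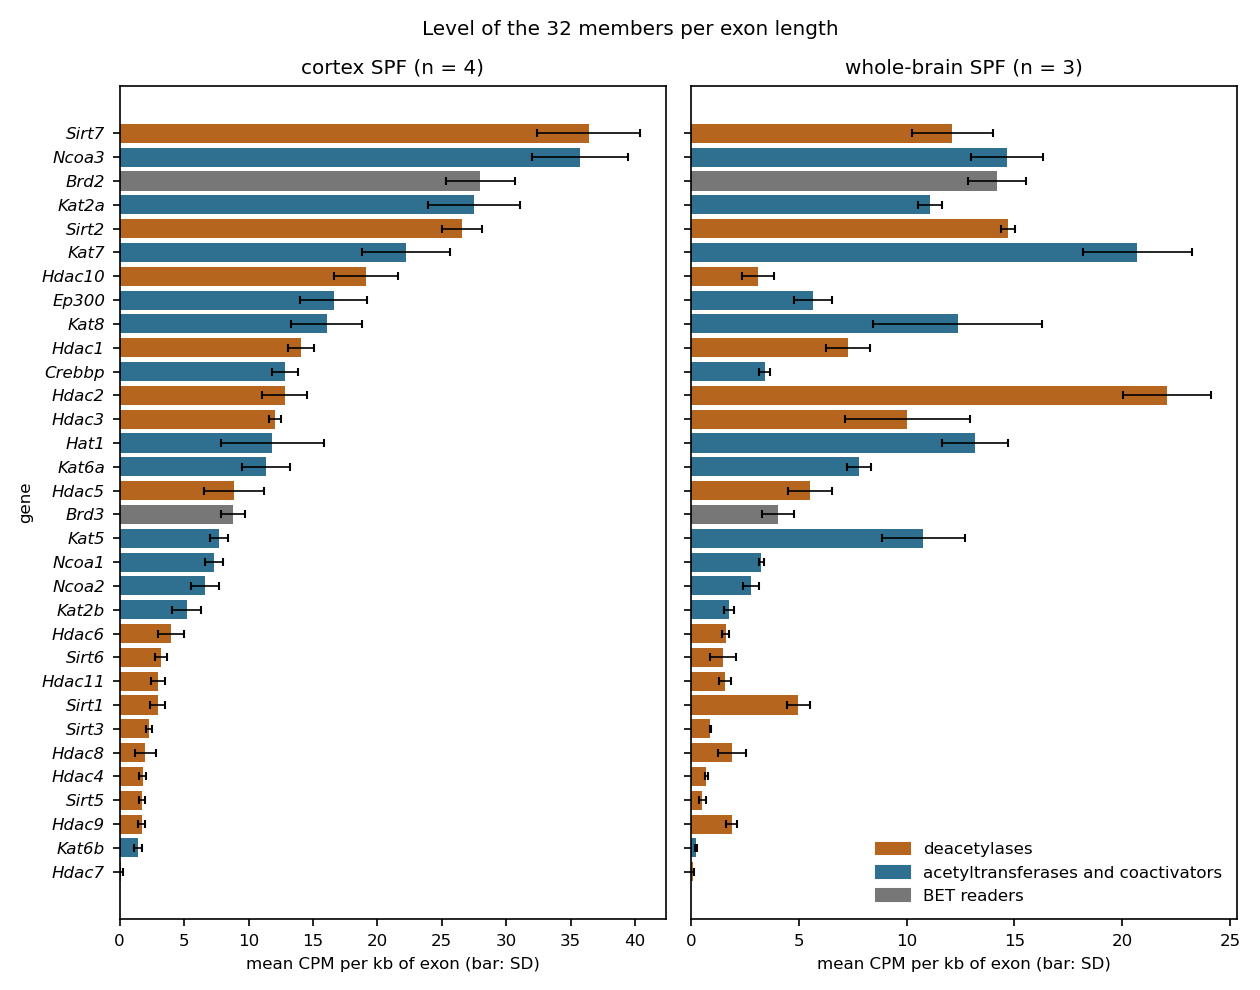
Mean level per kilobase of exon (CPM per kb, bars start at 0) of the 32 genes in cortex SPF (n = 4) and whole-brain SPF (n = 3) microglia, with SD as error bars. Sirt7 and Ncoa3 lead in cortex and Hdac2 and Kat7 in whole brain, and the 2 panels come from tables scaled separately.

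In whole-brain SPF libraries the order differed, with Hdac2 first (22.1 ± 2.04), then Kat7 (20.7 ± 2.52), Sirt2 (14.7 ± 0.325) and Ncoa3 (14.6 ± 1.67 CPM per kb, SD, n = 3 each). Hdac2 and Kat7 did not differ beyond their spread, nor did Sirt2 and Ncoa3. Sirt7 stood at 12.1 ± 1.88 and Crebbp at 3.41 ± 0.275 CPM per kb there. Age, table and scaling all differ between the whole-brain and the regional libraries and cannot be told apart.

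In whole-brain microglia of GF mice, Hdac9 fell, being 2.11-fold lower than in SPF mice. Hdac9, a class IIa deacetylase that represses MEF2 targets, had 18.8, 12.8, 14.2, 12.0 and 7.66 CPM in the GF libraries, against 29.1, 23.2 and 30.6 CPM in the SPF libraries. Every GF library lay below every SPF library. The mean was 13.1 ± 4.03 CPM in GF and 27.6 ± 3.91 CPM in SPF mice (SD, n = 5 and n = 3), a log2 difference of -1.08 (SE 0.22, 95% interval -1.56 to -0.59, edgeR quasi-likelihood test, Benjamini-Hochberg adjusted p = 0.026). It was the only member of 32 called, while 1.99% of the 11332 genes tested were called (1.02% higher and 0.971% lower). At an unadjusted p under 0.05 stood 8 members (25%), against 15.3% of all genes. The adjusted p was 0.094 without SPF 1, 0.11 without SPF 4, 0.057 without GF 2 and 0.064 without GF 4, with log2 differences of -1.04, -0.99, -1.07 and -1.05. GF 4 and GF 1 were the GF libraries with the highest neutrophil marker sums (173 and 28.4 CPM), and without GF 1 the difference was -1.24 (adjusted p = 0.011).

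Other class II members lay apart in whole brain without passing the test. Hdac6, a cytoplasmic deacetylase of tubulin, had 11.9, 14.6, 27.2, 17.9 and 20.3 CPM in GF libraries, against 10.5, 8.82 and 8.82 CPM in SPF libraries (log2 0.97, SE 0.24, adjusted p = 0.059). Its 5 GF values lay above all SPF values, though the lowest of them, in GF 1, was close to the highest SPF value. Hdac4, a class IIa relative of Hdac9, had 8.11, 7.23, 4.41, 5.74 and 9.29 CPM in GF libraries and 10.2, 12.5 and 11.1 CPM in SPF libraries (log2 -0.70, SE 0.24, adjusted p = 0.17). The annotation places exons of an antisense transcript, Gm26720, over 22.36% of the Hdac4 exon bases, and whether the counting used strand is not given in the sources used here.

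The acetyltransferases Kat6a and Ep300 lay lower and the deacetylase Sirt2 higher in whole-brain GF libraries, again short of the threshold in edgeR. Kat6a (MOZ), the catalytic subunit of a MYST complex, had 54.2, 51.6, 34.9, 58.9 and 49.1 CPM in GF and 68.9, 77.4 and 68.4 CPM in SPF libraries (log2 -0.53, SE 0.14, adjusted p = 0.072). Ep300 (p300), a general transcriptional coactivator, had 61.4, 58.0, 69.2, 52.8 and 57.6 CPM in GF and 88.2, 87.8 and 66.0 CPM in SPF libraries (log2 -0.43, SE 0.12, adjusted p = 0.074). The GF and SPF ranges of Ep300 overlapped through GF 3 and SPF 4, whereas those of Kat6a did not. Sirt2, which deacetylates tubulin and histone H4, had 84.8, 87.6, 102, 99.97 and 88.5 CPM in GF and 72.1, 74.4 and 75.3 CPM in SPF libraries (log2 0.32, SE 0.09, adjusted p = 0.083). With DESeq2, Hdac9, Hdac6, Kat6a, Ep300 and Sirt2 were all called, 2 higher and 3 lower, with adjusted p from 0.00059 to 0.013. DESeq2 also called more genes in all, 638 against 226 in edgeR.

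The class I deacetylases did not separate the whole-brain groups. Hdac1 had 24.9, 25.1, 25.2, 22.5 and 25.6 CPM in GF and 27.5, 21.1 and 26.8 CPM in SPF libraries (log2 -0.03, 95% interval -0.31 to 0.26). Hdac2 had 97.6, 99.5, 106, 94.6 and 96.3 CPM in GF and 109, 91.0 and 96.6 CPM in SPF libraries (log2 0.00, 95% interval -0.18 to 0.17). For Hdac3, the catalytic subunit of the NCoR complexes, the log2 difference was 0.10 (95% interval -0.23 to 0.43), with a spread in SPF libraries set by SPF 1 at 54.2 CPM against 32.6 and 35.3 CPM. Sirt1 had a log2 difference of -0.13 (95% interval -0.61 to 0.36), Crebbp of -0.24 (adjusted p = 0.36) and the BET reader Brd2 of -0.27 (adjusted p = 0.16).

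**Figure D2:**
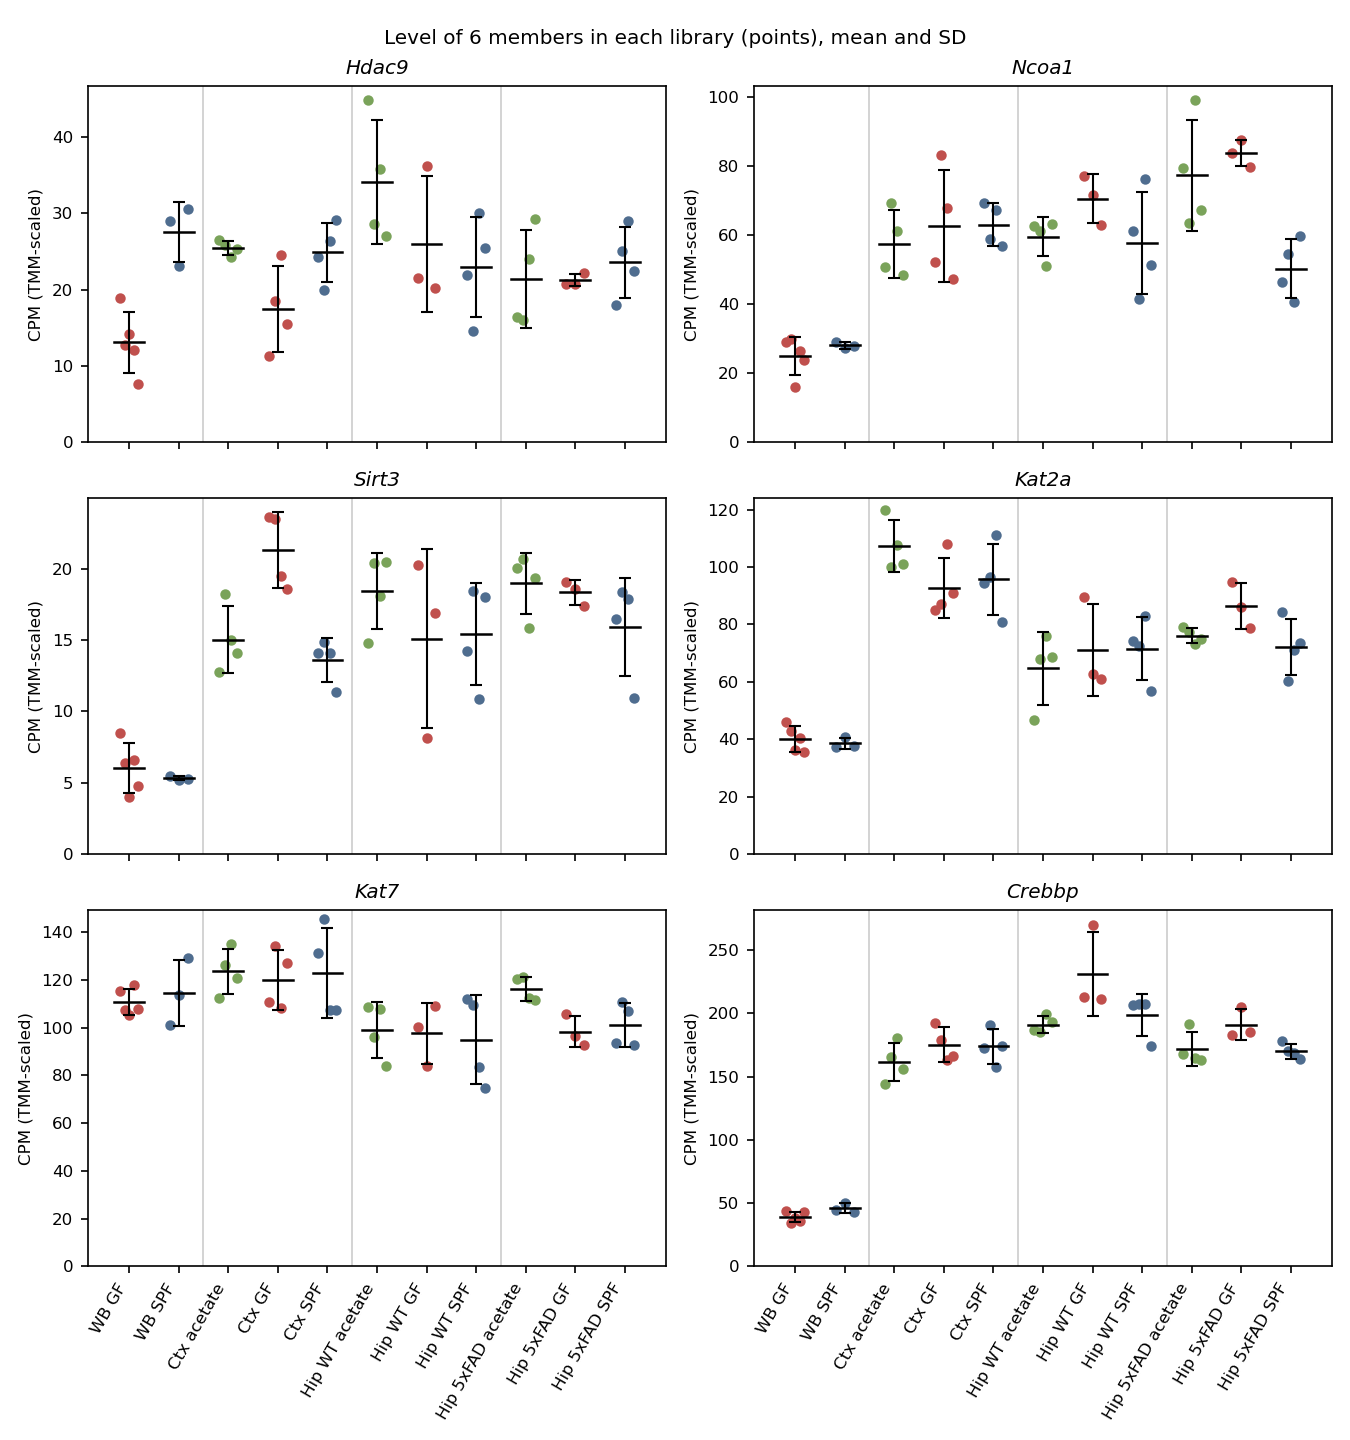
TMM-scaled CPM (vertical axes, linear) of Hdac9, Ncoa1, Sirt3, Kat2a, Kat7 and Crebbp in each of the 42 libraries, grouped along the horizontal axis by tissue (WB, whole brain; Ctx, cortex; Hip, hippocampus), genotype (WT, wild type) and condition (acetate, GF, SPF). Points are libraries, bars the group mean with SD. The 5 whole-brain GF points of Hdac9 lie between 7.66 and 18.8, below the 3 SPF points, and the 3 GF points of Ncoa1 in 5xFAD hippocampus lie between 79.8 and 87.3, above the 4 SPF points.

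In cortex, no member passed the test between GF and SPF mice (0 of 32 in edgeR, against 1.71% of 15113 genes called, 0.873% higher and 0.84% lower). At an unadjusted p under 0.05 stood 6 members (18.8%, against 13.8% of all genes). DESeq2 called 1 member, Sirt3, and its total over all genes is not given here. All 6 sirtuins had a log2 difference above 0, with a median of 0.22 (range 0.00 to 0.64), beside a median of 0.00 over all genes tested. The largest differences were those of Sirt3 and Sirt1, while Sirt2 (0.00) and Sirt6 (0.04) hardly differed. Sirt3, the main mitochondrial deacetylase, had 23.7, 23.5, 19.5 and 18.6 CPM in GF libraries, against 14.1, 14.9, 14.1 and 11.4 CPM in SPF libraries (log2 0.64, SE 0.17, edgeR adjusted p = 0.061, DESeq2 adjusted p = 0.0077). Sirt1, a nuclear NAD-dependent deacetylase, had 25.6, 19.9, 23.8 and 23 CPM in GF and 13.3, 16.0, 13.7 and 19.8 CPM in SPF libraries (log2 0.55, SE 0.18, adjusted p = 0.14). The GF values of both genes lay above all SPF values, narrowly for Sirt1. Exons of Ric8a and Psmd13 on the opposite strand cover 12.72% of the Sirt3 exon bases.

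Cell type markers moved with housing in cortex. The 5 border macrophage markers summed to 7.90 to 11.2 CPM in GF and 20.2 to 35 CPM in SPF libraries, with 1 of the 5 at 0 throughout GF and 2 of the 5 at 0 throughout SPF libraries, and the 9 microglial markers summed to 43730 to 49350 CPM in GF and 51100 to 64680 CPM in SPF libraries. Their part in the member differences was not tested.

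Hdac9 in cortex had 11.2, 18.5, 24.6 and 15.4 CPM in GF libraries and 24.3, 19.9, 26.3 and 29.1 CPM in SPF libraries (log2 -0.52, SE 0.20, 95% interval -0.94 to -0.10, adjusted p = 0.22). The ranges overlapped through GF-c. Of the class I enzymes, Hdac1 had 50.8, 54.6, 61.2 and 46.2 CPM in GF and 52.2, 43.7, 48.7 and 49.5 CPM in SPF libraries, and Hdac2 had 58.0, 44.8, 63.6 and 55.4 CPM in GF and 65.6, 55.3, 47.5 and 61.1 CPM in SPF libraries. Hdac3 had 63.8, 59.7, 50.9 and 52.7 CPM in GF and 48.9, 46.5, 51.0 and 49.2 CPM in SPF libraries (log2 0.21, adjusted p = 0.39). Ep300 and Crebbp differed by -0.06 (95% interval -0.27 to 0.15) and 0.01 (95% interval -0.19 to 0.21) on the log2 scale, and Brd2 by -0.06 (95% interval -0.27 to 0.16). Crebbp values were 193, 179, 163 and 166 CPM in GF and 173, 191, 157 and 175 CPM in SPF libraries.

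Acetate treatment of GF mice was compared in cortex with untreated GF mice and with SPF mice, comparisons that share samples with each other and with the GF to SPF comparison. Against GF, 0 of 32 members were called by edgeR and by DESeq2 (0.973% of all genes called in edgeR, 0.45% higher and 0.523% lower), with 3 members (9.38%, against 11.3% of genes) at an unadjusted p under 0.05. Against SPF, 0 of 32 were called by either tool (0.364% of all genes in edgeR, 0.225% higher and 0.139% lower), with 3 members (9.38%, against 7.03%) at an unadjusted p under 0.05. Sirt3 had 12.7, 18.3, 15 and 14.1 CPM in acetate libraries, against 23.7, 23.5, 19.5 and 18.6 CPM in GF libraries (log2 -0.51, SE 0.17, adjusted p = 0.19). No acetate value reached the lowest GF value, and the acetate range overlapped the SPF range. Hdac9 had 26.4, 25.9, 24.3 and 25.3 CPM in acetate libraries, against the GF values above (log2 0.54, SE 0.20, 95% interval 0.13 to 0.96, adjusted p = 0.25). Its SD was 0.909 CPM in acetate and 5.61 CPM in GF libraries. Only GF-c, at 24.6 CPM, reached into the acetate range.

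Hdac3 in acetate-treated cortex had 61.8, 56.1, 58.7 and 62.5 CPM, against 48.9, 46.5, 51.0 and 49.2 CPM in SPF libraries, without overlap (log2 0.28, SE 0.11, adjusted p = 0.52). Hdac1 had 55.7, 56.3, 54.5 and 52.9 CPM in acetate libraries, also above all SPF values. Ncoa2, a coactivator of nuclear receptors, had 77.8, 86.9, 84.6 and 93.9 CPM in acetate and 121, 88.2, 115 and 90.7 CPM in SPF libraries (log2 -0.28, SE 0.11, adjusted p = 0.59). The log2 differences between acetate and GF cortex were 0.04 for Hdac1, 0.24 for Hdac2 and 0.07 for Hdac3, and -0.03 for Ep300, -0.12 for Crebbp, -0.28 for Sirt1 and -0.06 for Brd2, with adjusted p from 0.62 to 0.96.

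Wild-type hippocampus gave no call among the members in any of the 3 comparisons by edgeR. Between GF and SPF mice 0 of 32 were called (0.727% of 17063 genes, 0.328% higher and 0.399% lower), with 4 (12.5%, against 12.6%) at an unadjusted p under 0.05. For acetate against GF 0 were called (0.492% of genes, 0.229% higher and 0.264% lower), with 5 (15.6%, against 11.7%) at that level, and for acetate against SPF 0 were called (0.123% of genes, 0.0996% higher and 0.0234% lower), with 3 (9.38%, against 8.03%). DESeq2 called 0, 1 and 0 members in these comparisons. The call was Kat6b (MORF), a MYST acetyltransferase paralogous to Kat6a, for acetate against GF. Kat6b had 14.9, 19.4, 25.3 and 23.7 CPM in acetate libraries, against 37.9, 34.6 and 29.9 CPM in GF and 31, 42.6, 28 and 27.3 CPM in SPF libraries. The lowest of these, 14.9 CPM, belonged to acetate-a, the hippocampal library with the fewest genes detected (16607). Acetate values lay below all GF and all SPF values (against GF, log2 -0.71, SE 0.20, edgeR adjusted p = 0.12, DESeq2 adjusted p = 0.034; against SPF, log2 -0.64, SE 0.19, edgeR adjusted p = 0.33). For acetate against GF elsewhere, Kat6b differed by log2 -0.11 in cortex (edgeR adjusted p = 0.88) and -0.26 in 5xFAD hippocampus (edgeR adjusted p = 0.9). The microglial markers summed to 53890 to 55580 CPM with acetate, 42100 to 43730 CPM in GF and 52530 to 58300 CPM in SPF libraries of wild-type hippocampus. Oligodendrocyte markers summed to 52.6 to 71.2 CPM, 73.2 to 88.65 CPM and 67.2 to 89.9 CPM in the same groups. Border macrophage markers summed to 0.0663 to 8.79 CPM with acetate, 1.26 to 9.30 CPM in GF and 11.4 to 26.8 CPM in SPF libraries. The part of these marker differences in the member differences of wild-type hippocampus was not tested. Annotated pseudogenes Kat6b-ps1 and Kat6b-ps2 could share reads with Kat6b, depending on how reads with several matches were counted.

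Crebbp (CBP), the partner of p300, had 187, 185, 200 and 193 CPM in acetate-treated wild-type hippocampus, against 213, 270 and 212 CPM in GF libraries, without overlap (log2 -0.28, SE 0.10, adjusted p = 0.24). In SPF libraries Crebbp had 207, 207, 207 and 174 CPM, so that GF values lay above all SPF values (log2 0.22, SE 0.10, adjusted p = 0.37). The highest GF value, 270 CPM, belonged to GF-c, and without that library the Crebbp difference was -0.15 for acetate against GF and 0.09 for GF against SPF. Hdac4 had 41.1, 36.5 and 41.0 CPM in GF and 31.1, 32.1, 17.5 and 29.97 CPM in SPF libraries (log2 0.51, SE 0.21, adjusted p = 0.30). The lowest of these, 17.5 CPM, belonged to SPF 3, the library with 70.78 CPM of erythroid markers. Ncoa2 had 103, 111 and 96.7 CPM in GF and 95.4, 66.3, 83.5 and 71.5 CPM in SPF libraries (log2 0.38, SE 0.16, adjusted p = 0.34). Brd3, a BET reader of acetylated histones, had 51.3, 45.9, 57.3 and 55.9 CPM in acetate and 70.8, 83.2, 60.04 and 60.8 CPM in SPF libraries (log2 -0.39, SE 0.17, adjusted p = 0.55).

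Hdac9 was not called in wild-type hippocampus, where it had 44.8, 28.7, 35.8 and 27.1 CPM with acetate, 21.5, 36.3 and 20.2 CPM in GF and 21.9, 14.5, 30.1 and 25.5 CPM in SPF libraries. The log2 difference between GF and SPF was 0.17 (95% interval -0.38 to 0.73), beside the whole-brain estimate of -1.08. Its direction rested on single libraries, being -0.15 without GF-c and 0.00 without SPF 2. The 2 estimates come from separate tables and ages, and their difference was not tested.

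In 5xFAD hippocampus, Ncoa1 rose in GF mice. Ncoa1 (SRC-1) is a coactivator that binds nuclear hormone receptors and recruits p300 and CBP. It had 83.8, 87.3 and 79.8 CPM in GF libraries, against 46.3, 54.4, 40.6 and 59.7 CPM in SPF libraries. All 3 GF values lay above all 4 SPF values. The mean was 83.6 ± 3.77 CPM in GF and 50.2 ± 8.45 CPM in SPF mice (SD, n = 3 and n = 4), a 1.66-fold difference (log2 0.73, SE 0.18, 95% interval 0.36 to 1.10, edgeR adjusted p = 0.035). It was the only member of 32 called, against 1.82% of the 17063 genes (0.908% higher and 0.914% lower), and 3 members (9.38%, against 11.9% of genes) had an unadjusted p under 0.05. The adjusted p was 0.11, 0.092, 0.096, 0.14 and 0.11 without SPF-a, SPF-c, GF-a, GF-b and GF-c in turn, and 0.055 without both shallow SPF libraries, with log2 differences of 0.64 to 0.77.

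Without SPF-d, the 5xFAD library with 259 CPM of neutrophil markers, the log2 difference of Ncoa1 was 0.82 (adjusted p = 0.034). Border macrophage markers summed to 3.45 to 10.2 CPM in 5xFAD GF and 13.8 to 27.1 CPM in 5xFAD SPF libraries, with 2 of the 5 at 0 in GF and none at 0 in SPF. Their part in the Ncoa1 difference was not tested.

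Acetate-treated 5xFAD GF mice had 79.4, 63.3, 98.9 and 67.1 CPM of Ncoa1, above all SPF values and spanning the GF values (against SPF, log2 0.61, SE 0.17, adjusted p = 0.25; against GF, log2 -0.11, SE 0.18, adjusted p = 0.99). For acetate against GF in 5xFAD, 0 of 32 members were called by edgeR or DESeq2 (0.082% of genes in edgeR, 0.0176% higher and 0.0645% lower), with 2 (6.25%, against 7.54%) at an unadjusted p under 0.05. For acetate against SPF, 0 were called by either tool (0.0527% of genes, 0.0469% higher and 0.00586% lower), with 2 (6.25%, against 6.72%) at that level. Kat8 (MOF), which acetylates histone H4, had 33.7, 24.7, 36.4 and 33.8 CPM in acetate libraries, 34.7, 44.4 and 43.9 CPM in GF and 41.8, 46.2, 42.1 and 42.9 CPM in SPF libraries (against SPF, log2 -0.43, SE 0.15, adjusted p = 0.46). No acetate value of Kat8 reached the SPF range. Ep300 had 206, 198, 218 and 186 CPM in acetate and 219, 260 and 286 CPM in GF libraries (log2 -0.34, SE 0.13, adjusted p = 0.48).

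In other tissues and genotypes Ncoa1 did not follow this pattern with a call. Wild-type hippocampus had 62.5, 61.1, 51.0 and 63.0 CPM with acetate, 77.0, 71.5 and 62.8 CPM in GF and 61.2, 41.4, 76.1 and 51.3 CPM in SPF libraries (GF against SPF, log2 0.29, SE 0.18, adjusted p = 0.55). Cortex gave a log2 difference of -0.01 (SE 0.16) and whole brain of -0.17 (SE 0.18) between GF and SPF mice.

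**Figure D3:**
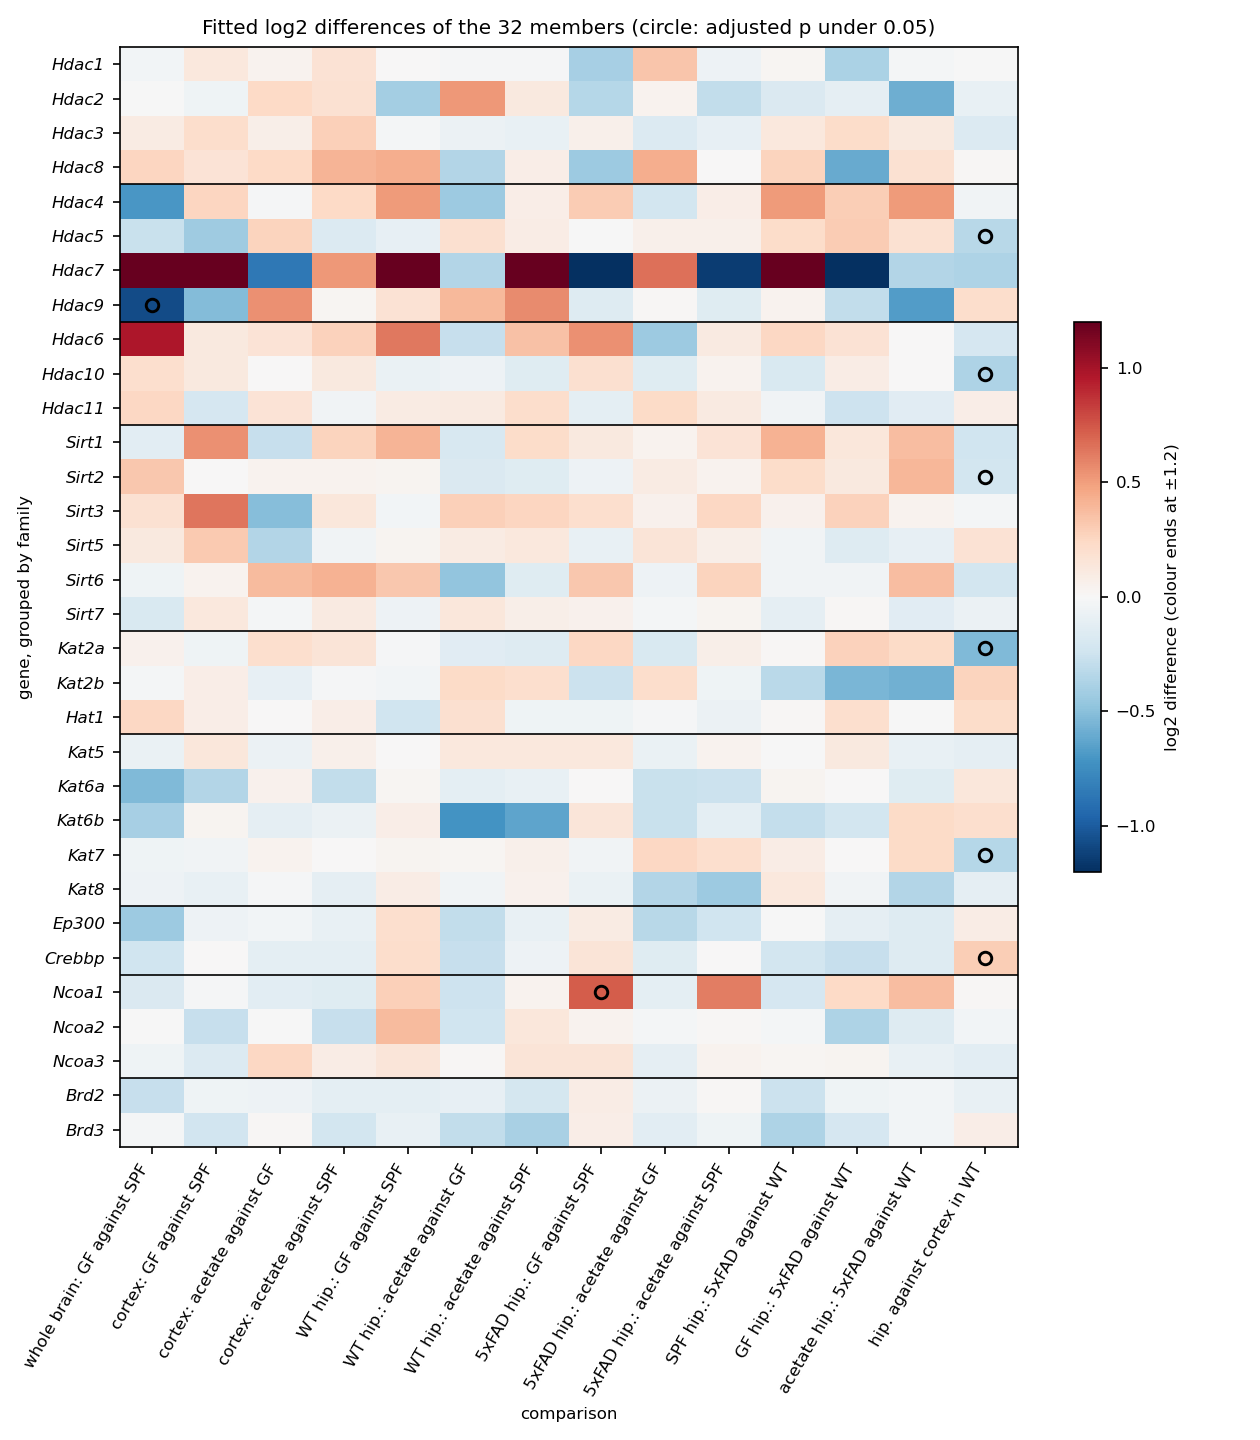
Fitted log2 differences (colour, ends at -1.2 and 1.2) of the 32 genes, in rows by family, in 14 comparisons of the first-named with the second-named group, in columns. Circles mark an edgeR adjusted p under 0.05. Circles stand at Hdac9 in whole brain, at Ncoa1 in 5xFAD hippocampus and at 6 genes in the column of hippocampus against cortex.

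The 5xFAD genotype was compared with wild type within each condition. In SPF hippocampus 0 of 32 members were called (0.568% of genes, 0.363% higher and 0.205% lower), with 5 (15.6%, against 10.2%) at an unadjusted p under 0.05. In GF hippocampus 0 were called (0.756% of genes, 0.557% higher and 0.199% lower), with 4 (12.5%, against 10.6%), and in acetate-treated GF hippocampus 0 were called (2.51% of genes, 1.83% higher and 0.674% lower), with 7 (21.9%, against 14.3%). DESeq2 called 0, 0 and 1 members, the last being Sirt2, and its totals over all genes are not given here. Sirt2 had 138, 148, 133 and 152 CPM in 5xFAD acetate libraries, against 81.5, 113, 129 and 109 CPM in wild-type acetate libraries, without overlap (log2 0.40, SE 0.11, edgeR adjusted p = 0.066, DESeq2 adjusted p = 0.021). Wild-type acetate-a was the lowest of these at 81.5 CPM, and without acetate-c the edgeR adjusted p was 0.034 (log2 0.49). Border macrophage markers summed to 10.2 to 27.7 CPM in 5xFAD and 0.0663 to 8.79 CPM in wild-type acetate libraries, and microglial markers to 46260 to 48330 CPM in 5xFAD and 53890 to 55580 CPM in wild-type acetate libraries. Oligodendrocyte markers summed to 66.6 to 87.3 CPM in 5xFAD and 52.6 to 71.2 CPM in wild-type acetate libraries. The part of these markers in the genotype differences was not tested. Hdac2 had 37.2, 33.5, 48.6 and 52.6 CPM in 5xFAD and 69.2, 63.5, 50.7 and 73.3 CPM in wild-type acetate libraries, overlapping in 1 library of each (log2 -0.58, SE 0.19, adjusted p = 0.12).

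Hdac4 had 36.9, 46.9, 39.3 and 34.2 CPM in 5xFAD SPF and 31.1, 32.1, 17.5 and 29.97 CPM in wild-type SPF hippocampus, without overlap (log2 0.51, SE 0.19, adjusted p = 0.33). In GF hippocampus Hdac4 had 49.1, 55.2 and 41.5 CPM in 5xFAD and 41.1, 36.5 and 41.0 CPM in wild-type libraries (log2 0.29, SE 0.22, adjusted p = 0.73). Crebbp had 183, 205 and 185 CPM in 5xFAD GF and 213, 270 and 212 CPM in wild-type GF libraries (log2 -0.28, SE 0.10, adjusted p = 0.29). Kat2b (PCAF), a GCN5-type acetyltransferase, had 21.4, 18.9 and 19.2 CPM in 5xFAD GF and 28.5, 28.3 and 29.9 CPM in wild-type GF libraries, without overlap (log2 -0.55, SE 0.23, adjusted p = 0.37). An annotated pseudogene, Kat2b-ps, could share reads with Kat2b, depending on how reads with several matches were counted. Hdac7 had 0.991, 2.43, 0.949 and 4.55 CPM in 5xFAD SPF and 0.678, 0.239, 0.109 and 0.828 CPM in wild-type SPF libraries (log2 2.31, SE 0.80, adjusted p = 0.25), a difference between very low levels.

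The class I deacetylases were not called in any hippocampal comparison of condition or genotype. In 5xFAD mice Hdac1 had a lowest, median and highest level of 43.9, 53.0 and 55.9 CPM with acetate, 35.4, 38.8 and 48.4 CPM in GF and 49.5, 51.1 and 62.0 CPM in SPF libraries. The GF values lay below all SPF values, short of the threshold (log2 -0.40, SE 0.17, adjusted p = 0.32), and the highest SPF value came from SPF-d, the library with neutrophil markers. Hdac2 in wild-type mice had 50.7, 66.4 and 73.3 CPM with acetate, 34.5, 42.5 and 57.4 CPM in GF and 42.3, 60.1 and 74.8 CPM in SPF libraries (acetate against GF, log2 0.52, SE 0.21, adjusted p = 0.31). In 5xFAD mice the log2 difference of Hdac2 between acetate and GF was 0.04 (95% interval -0.38 to 0.46). Hdac3 ranged from 37.8 to 65.8 CPM over the 6 hippocampal groups, and its log2 difference between GF and SPF was 0.06 in 5xFAD (95% interval -0.31 to 0.44) and -0.02 in wild-type mice (95% interval -0.40 to 0.35). Hdac9 had 16.4, 16.0, 24 and 29.3 CPM with acetate, 20.8, 20.8 and 22.2 CPM in GF and 17.9, 25, 29 and 22.4 CPM in SPF libraries of 5xFAD mice, with overlap throughout. Sirt1 ranged from 9.70 to 26.6 CPM and Brd2 from 141 to 254 CPM over the same groups, with adjusted p of 0.63 and 0.81 between GF and SPF in wild-type mice.

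Whether the housing and acetate differences themselves differed between genotypes was tested as interactions. EdgeR called 0 of 17063 genes, members included, for GF against SPF, acetate against GF and acetate against SPF (0% of genes each), with 942, 905 and 1124 genes and 1, 0 and 3 members at an unadjusted p under 0.05. DESeq2 called 0 members in each. The smallest unadjusted p belonged to Hdac7 (log2 -3.68, SE 1.19, adjusted p = 0.80) and Hdac8 (log2 -0.87, SE 0.45, adjusted p = 0.90) for GF against SPF, and to Hdac8 (log2 0.80, SE 0.44, adjusted p = 0.95) and Hdac2 (log2 -0.48, SE 0.29, adjusted p = 0.97) for acetate against GF. For acetate against SPF they were Hdac7 (log2 -2.67, SE 1.09, adjusted p = 0.68) and Ncoa1. For Ncoa1, the difference between acetate and SPF was larger in 5xFAD than in wild type by 0.57 on the log2 scale (SE 0.24, unadjusted p = 0.0239, adjusted p = 0.69). For GF against SPF the interaction of Ncoa1 was 0.44 (SE 0.26, adjusted p = 0.93), so its housing difference is not shown to differ between genotypes.

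Most member calls lay between brain regions, the comparison with the largest share of all genes called. In 11 wild-type animals with both libraries, hippocampal microglia had lower Kat2a, Kat7, Hdac5, Hdac10 and Sirt2 and higher Crebbp than cortical microglia. Libraries were matched to animals by the number in their titles, which for SPF mice is only a running number. These were 6 calls among 32 members, 1 higher and 5 lower, against 12.5% of 16706 genes called (4.43% higher and 8.06% lower), with 9 members (28.1%, against 26.5% of genes) at an unadjusted p under 0.05. The model took the animal as a block and averaged the region difference over acetate, GF and SPF mice.

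Kat7 (HBO1), an acetyltransferase of histone H3 and a factor in replication licensing, had a lowest, median and highest level of 74.7, 100.1 and 112 CPM in hippocampus, against 107, 126 and 146 CPM in cortex. It was lower in hippocampus in 11 of 11 animals. The means were 97.2 ± 13.5 CPM in hippocampus and 123 ± 13 CPM in cortex (SD, n = 11), a log2 difference of -0.34 (SE 0.06, adjusted p = 0.0019).

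Kat2a (GCN5), the acetyltransferase of the SAGA and ATAC complexes, had 46.6, 68.5 and 89.6 CPM as lowest, median and highest level in hippocampus, against 80.8, 100.1 and 120 CPM in cortex. It was lower in hippocampus in 10 of 11 animals, the exception being GF-b with 89.6 CPM in hippocampus and 87.0 CPM in cortex. Its log2 difference was -0.53 (SE 0.09, 95% interval -0.72 to -0.34, adjusted p = 0.0019), from means of 69.0 ± 12.1 CPM in hippocampus and 99.8 ± 11.4 CPM in cortex. The paralog Kat2b had 31 ± 5.28 CPM in hippocampus and 25.5 ± 3.69 CPM in cortex, higher in hippocampus in 10 of 11 animals but short of the threshold in edgeR (log2 0.27, SE 0.10, adjusted p = 0.092). Kat2b was called by DESeq2 (log2 0.28, adjusted p = 0.032) and by edgeR without acetate-d (log2 0.33, adjusted p = 0.042). Reads shared with the pseudogene Kat2b-ps are a possible limit here too.

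Crebbp had 174, 207 and 270 CPM as lowest, median and highest level in hippocampus, against 144, 166 and 191 CPM in cortex. It was higher in hippocampus in 10 of 11 animals, SPF 4 with its shallow hippocampal library being the exception. The log2 difference was 0.30 (SE 0.06, adjusted p = 0.0037), and for Ep300 it was 0.09 (95% interval -0.03 to 0.21, adjusted p = 0.36). Kat2a, Kat7 and Crebbp were called in all 17 alternative fits of the region comparison, with adjusted p up to 0.0097, 0.011 and 0.025.

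**Figure D4:**
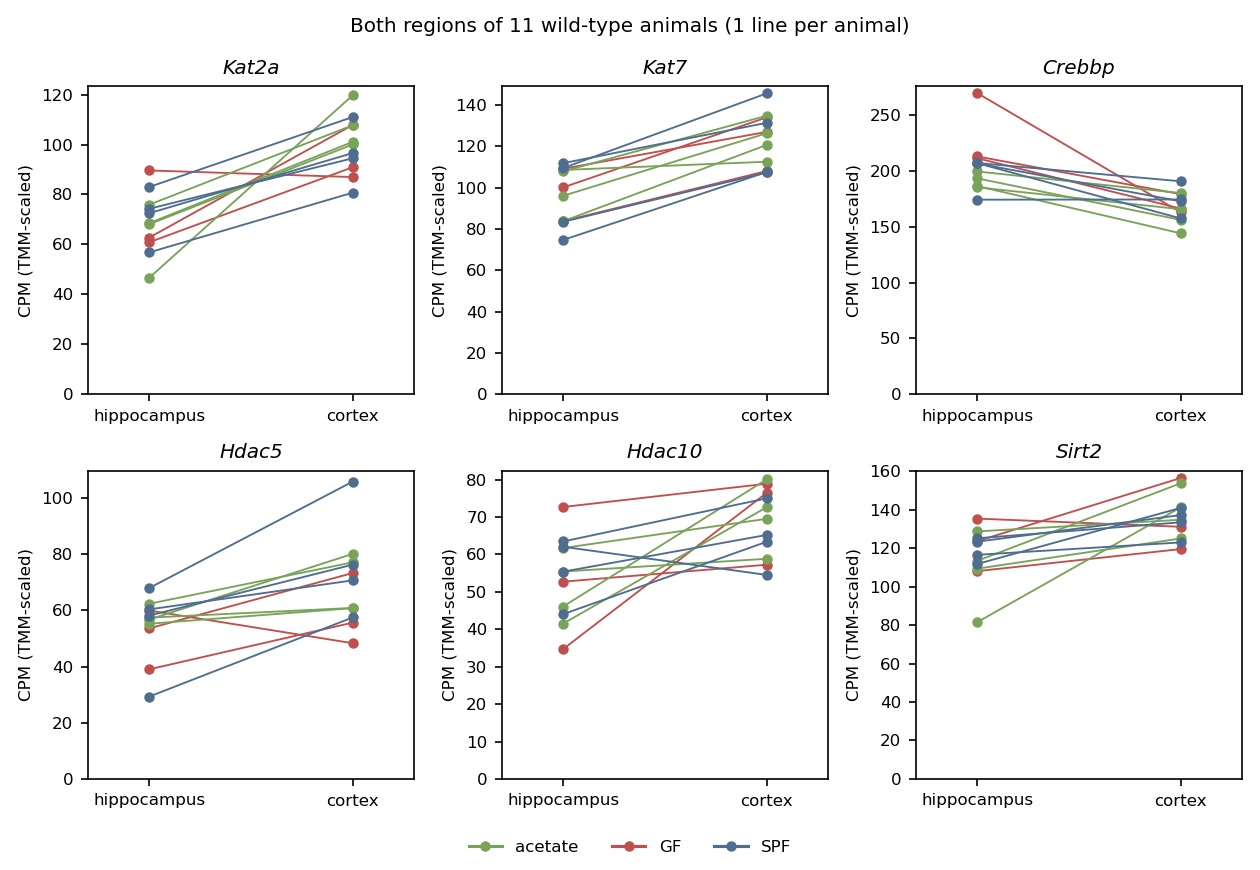
TMM-scaled CPM (vertical axes, linear) of Kat2a, Kat7, Crebbp, Hdac5, Hdac10 and Sirt2 in hippocampus (left) and cortex (right) of the 11 wild-type animals, with a line for each animal coloured by condition. Kat7 is lower in hippocampus in 11 animals, Kat2a, Hdac5, Hdac10 and Sirt2 in 10 each, and Crebbp is higher in hippocampus in 10.

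The deacetylases Hdac5, Hdac10 and Sirt2 were lower in hippocampus in calls that fewer alternative fits kept. Hdac5, a class IIa deacetylase, averaged 54.6 ± 11 CPM in hippocampus and 69.7 ± 15.8 CPM in cortex (log2 -0.34, SE 0.09, adjusted p = 0.027), lower in 10 of 11 animals with GF-d as the exception. Hdac10, a class IIb enzyme known as a polyamine deacetylase, averaged 53.6 ± 11.2 CPM in hippocampus and 68.4 ± 9.05 CPM in cortex (log2 -0.37, SE 0.11, adjusted p = 0.04), with SPF 1 as the exception. Sirt2 averaged 116 ± 14.3 CPM in hippocampus and 136 ± 11.8 CPM in cortex (log2 -0.22, SE 0.07, adjusted p = 0.044), with GF-c as the exception. Of 17 alternative fits, 10 called Hdac5, 10 called Hdac10 and 3 called Sirt2. With an animal left out, the calls were lost for Hdac5 without GF-b, GF-c, acetate-b, SPF 1 or SPF 4 (adjusted p up to 0.10), for Hdac10 without GF-b, acetate-a, acetate-b, SPF 2, SPF 3 or SPF 4 (up to 0.12) and for Sirt2 without each animal other than acetate-c (up to 0.13).

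No class I deacetylase was called between the regions. Hdac1 averaged 52.5 ± 7.60 CPM in hippocampus and 52.3 ± 5.00 CPM in cortex (log2 0.00, 95% interval -0.17 to 0.17), and Hdac2 averaged 57.1 ± 13.3 CPM in hippocampus and 59.6 ± 11.3 CPM in cortex (log2 -0.09, 95% interval -0.30 to 0.12). Hdac3 was lower in hippocampus in 9 of 11 animals, short of the threshold (log2 -0.16, 95% interval -0.32 to -0.009, adjusted p = 0.16). Hdac8 had a log2 difference of 0.02 (95% interval -0.35 to 0.38). The log2 difference of Hdac9 was 0.21 (adjusted p = 0.19), of Sirt1 -0.24 (adjusted p = 0.29) and of Brd2 -0.08 (adjusted p = 0.42). Border macrophage markers summed to 0.0663 to 8.79 CPM in hippocampus and 9.56 to 12.8 CPM in cortex of acetate mice. They summed to 1.26 to 9.30 CPM in hippocampus and 7.90 to 11.2 CPM in cortex of GF mice, and to 11.4 to 26.8 CPM in hippocampus and 20.2 to 35 CPM in cortex of SPF mice. Of the 5 markers, 1 in acetate, 3 in GF and 1 in SPF hippocampus were at 0 throughout, and 2, 1 and 2 in cortex of the same conditions. Oligodendrocyte markers summed to 52.6 to 71.2 CPM in hippocampus and 77.0 to 89.4 CPM in cortex of acetate mice, without overlap. The ranges overlapped in GF mice (73.2 to 88.65 CPM in hippocampus and 64.9 to 90.8 CPM in cortex). In SPF mice they overlapped as well (67.2 to 89.9 CPM in hippocampus and 71.1 to 103.7 CPM in cortex). The part of these markers in the region differences was not tested.

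Genes whose products work in complexes with the members were read from 4 lists. Of 40 subunits of acetyltransferase complexes, 6 were called between regions, 2 higher and 4 lower in hippocampus, where 12.5% of all genes were called. The smallest p belonged to Usp22, the ubiquitin protease of the SAGA complex that also holds Kat2a (log2 -0.52, SE 0.06, adjusted p = 0.00024), and to Brpf1, the scaffold of the Kat6a and Kat6b complex (log2 -0.37, SE 0.06, adjusted p = 0.00097). Among 24 other acetyl readers, 4 were higher and 1 lower in hippocampus, with the NURF subunit Bptf at a log2 difference of 0.41 (SE 0.06, adjusted p = 0.0011). Among 25 corepressor subunits 1 was higher and 3 lower, with the NuRD subunit Mta2 at -0.41 (SE 0.08, adjusted p = 0.0031), and 1 of 20 tested class IIa partners and kinases was higher. Usp22, Brpf1, Bptf and Mta2 were called in all 17 alternative fits.

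Between conditions, few partners were called. Jade2, a scaffold subunit of the Kat7 (HBO1) complex, was lower with acetate than in GF mice in both regions of wild-type mice. In cortex it had 40.3, 26.7, 33.7 and 30.2 CPM in acetate libraries, against 65.6, 70.1, 62.1 and 61.0 CPM in GF libraries (log2 -0.99, SE 0.18, adjusted p = 0.014), and 37.4, 36.9, 61.9 and 31.1 CPM in SPF libraries. In wild-type hippocampus it had 53.1, 29.4, 34.9 and 35.3 CPM in acetate libraries, against 84.2, 78.1 and 72.3 CPM in GF libraries (log2 -1.03, SE 0.22, adjusted p = 0.038), and 40.2, 36.9, 49.5 and 42.9 CPM in SPF libraries. All acetate values lay below all GF values in both regions. The hippocampal call was kept in 22 of 29 alternative fits and the cortical call in 12 of 17. It was lost in hippocampus in a fit of the acetate and GF groups alone (adjusted p = 0.19), which called 0 genes, and without GF-b, GF-c, GF-d, acetate-b, acetate-c or acetate-d (adjusted p up to 0.13). In cortex it was lost without GF-a, GF-b, acetate-b, acetate-c or acetate-d (adjusted p up to 0.065). Over all these alternatives the log2 difference ranged from -1.24 to -0.90. All 4 acetate animals and 3 of the GF animals gave both regions, so the regions are not independent. Kat7 itself differed little between acetate and GF mice in cortex, with 113, 126, 135 and 121 CPM in acetate and 111, 134, 108 and 127 CPM in GF libraries.

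Supt20, a core subunit of SAGA, was higher in GF mice in cortex and in 5xFAD hippocampus. It had 275, 284, 271 and 279 CPM in GF cortex, against 190, 215, 230 and 227 CPM in SPF cortex (log2 0.36, SE 0.09, adjusted p = 0.04), and 257, 262 and 307 CPM in 5xFAD GF, against 176, 188, 200 and 174 CPM in 5xFAD SPF hippocampus (log2 0.57, SE 0.12, adjusted p = 0.014). Its cortical call was kept in 6 of 17 alternative fits. It was lost without any GF library or without SPF 1, SPF 2, SPF 3, acetate-b or acetate-d (adjusted p up to 0.10). That call was also lost with no filter (adjusted p = 0.055) and in a fit of only the groups compared (adjusted p = 0.083). Its 5xFAD call was kept in 27 of 29, and lost without GF-c (adjusted p = 0.13) or SPF-a (adjusted p = 0.051). Camk1, a kinase that phosphorylates class IIa deacetylases, had 460, 460 and 438 CPM in 5xFAD GF hippocampus, against 579, 479, 662 and 608 CPM in SPF libraries (log2 -0.37, SE 0.09, adjusted p = 0.043). That call was kept in 13 of 29 alternative fits. It was lost without any of the 3 GF libraries or without SPF-a, SPF-c or SPF-d (adjusted p up to 0.24). Leaving out some libraries of the other hippocampal groups that share the fit also lost it (adjusted p up to 0.058). The Camk1 call was lost too with no filter (adjusted p = 0.13) and in a fit of only the groups compared (adjusted p = 0.16). In whole brain, Camk2b, another calcium-dependent kinase, had 14, 16.2, 10.9, 9.53 and 8.73 CPM in GF and 0.0463, 2.13 and 0.871 CPM in SPF libraries (log2 3.52, SE 0.59, adjusted p = 0.0069), a call lost among 13 alternative fits in the replicate block only (adjusted p = 0.082). The bromodomain protein Cecr2 had 2.497 to 3.10 CPM in GF and 0.0463 to 0.669 CPM in SPF libraries of whole brain (log2 3.08, SE 0.67, adjusted p = 0.031), on few reads in SPF mice. The Cecr2 call was kept in 6 of 13 alternative fits and lost without SPF 1, SPF 4, GF 1, GF 2, GF 4 or GF 5 (adjusted p up to 0.11) and in the replicate block (adjusted p = 0.17).

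Across all 17 comparisons, 8 of the 32 members were called in at least 1, and 24 in none. The 3 comparisons with a call were GF against SPF in whole brain, GF against SPF in 5xFAD hippocampus, and hippocampus against cortex. Most calls were between regions, where 12.5% of all genes were called, against 1.99% in whole brain and 1.82% in 5xFAD hippocampus. With all libraries in the fit, edgeR called no member in any acetate comparison or between genotypes.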

How the data were processed

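Microglial RNA was sequenced on a HiSeq 1000, per the labels' protocols. The values deposited by the authors are unnormalized read counts for each gene symbol, made per the submitters' processing notes with STAR 2.5.2b and featureCounts 1.5.1 on build GRCh38, a human build although the symbols are those of mouse. Counts on the 24421 whole-brain rows and the 53546 cortex and hippocampus rows were fitted separately with edgeR 4.0.16 (R 4.3.3, limma 3.58.1): TMM scaling, a filter at a minimum count of 10, robust quasi-likelihood tests, two-sided, Benjamini-Hochberg adjustment over all genes, threshold 0.05. Hippocampus was set against cortex with the animal as a block, since titles carry the same number in both regions (11 animals, residual r 0.0274 to 0.116, above 0.1 in 3). For GF and acetate mice this is an animal number. For SPF mice it is a running number from 1 to 4, so their pairing is assumed from the titles.

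Exon lengths and overlaps came from GENCODE on GRCm38 and promoters from RefSeq, both matched by symbol. Replicates of a group differed beyond sampling noise (chi-square per degree of freedom 10.09 to 60.25 over 61 pairs). The labels do not say that replicates are independent cultures or litters, so p-values measure the spread between these samples. Members called anywhere were named with full values, as were the 2 with the smallest p where none was called, 8 members throughout, and from the partner lists up to 4 called genes a comparison. The members and lists were chosen with earlier results of these data known. The fit was tested on simulated data. Alternatives were DESeq2 1.42.0, other scaling, no filter or a mean of 1 CPM, other sets of samples, the replicate block and each replicate left out.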

Additional observations from a re-analysis of the deposited data

Results flagged for a closer look

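Within groups of 4 or 5 libraries, a library far from its neighbours by Dixon's criterion was found in 7 of 184 combinations of a named member and a group, and chance flags about 1 in 20 groups. Hdac1 was low in whole-brain GF 4 at 22.5 CPM, the library with 173 CPM of neutrophil markers, and high in 5xFAD SPF-d at 62.0 CPM, the library with 259 CPM of them. Hdac4 was low in wild-type hippocampal SPF 3 at 17.5 CPM, the library with 70.78 CPM of erythroid markers. Crebbp was low in wild-type hippocampal SPF 4 at 174 CPM, a library with fewer counts than the rest of its group. Hdac8 was high in cortex GF-c at 13.3 CPM, Hdac10 was high in whole-brain GF 2 at 14.2 CPM, and Ncoa1 was low in wild-type hippocampal acetate-c at 51.0 CPM. The part of these markers and depths in the values was not tested.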

How the results depend on the processing

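Over 89 alternative fits, 0 member results called in the main analysis reversed. In whole brain, where 1 member was called, DESeq2 called 5, no filter gave 3, the replicate block gave 0 and leaving out a library gave 0 to 3. All genes called there were 226, against 638 by DESeq2, 271 with no filter, 46 in the replicate block and 83 to 242 with a library left out. For acetate against GF they were 84 in wild-type hippocampus, against 376 by DESeq2, 0 in a fit of only these groups and 29 to 130 with a library left out, and 147 in cortex, against 467, 316 and 23 to 277. In the replicate block over the 3 shared numbers, whose same-numbered libraries did not deviate together (r -0.0365 to -0.00293), Hdac9 had a log2 difference of -0.89 (adjusted p = 0.14). DESeq2 called 1 member for GF against SPF in cortex, 1 for acetate against GF in wild-type hippocampus and 1 for 5xFAD against wild type with acetate, where leaving out a library gave 0 to 1. In 5xFAD hippocampus, GF against SPF gave 0 calls without the shallow libraries and 0 to 1 with a library left out. Member calls between regions, 6 in the main analysis, were 3 without acetate-a and GF-c, 4 with no replicate block, 7 by DESeq2 (Kat2b being the added one) and 3 to 6 with an animal left out. The cause of these changes was not tested. Totals of all genes called by DESeq2 are not given here for regions, genotypes and GF against SPF in cortex. Refitting the called partner genes under the same alternatives was added after seeing the data. Depth limits Hdac7 most, at up to 4.55 CPM.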

Other observations

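Kat7 was chosen here after its values were seen. In 5xFAD hippocampus it had 120, 121, 112 and 112 CPM with acetate, 106, 96.5 and 92.8 CPM in GF and 93.5, 111, 107 and 92.9 CPM in SPF libraries. All 4 acetate values lay above all GF and all SPF values, short of the threshold (against GF, log2 0.25, SE 0.13, edgeR adjusted p = 0.75; against SPF, log2 0.20, SE 0.12, adjusted p = 0.89). Jade2, a subunit of the same complex, had 41.2, 45.7, 52.6 and 23 CPM with acetate, 59.1, 74.9 and 60.7 CPM in GF and 37.4, 46.7, 28.6 and 31.9 CPM in SPF libraries of 5xFAD hippocampus, with all GF values above all others.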
